A study of Mus musculus with 4 samples.

Results

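The chromodomain helicase family comprises Chd1 to Chd9, to which Chd1l, a relative with the same kind of ATPase, was added by name, making 10 genes of the 23936 in the deposited table. Each was found by its gene symbol, and all 10 had a row. Expression was measured by RNA sequencing in G1ER, a line of mouse erythroblasts without endogenous GATA1 that instead carries GATA1 fused to the estrogen receptor, so that beta-estradiol starts red cell maturation. The 4 groups, with 1 library each, were wild type and Chd7-/-, each before (0 h) and after 24 h of beta-estradiol, all kept in medium with erythropoietin and stem cell factor. Whether the knockout line is a clone is not given in the sources used here, and times come from the titles, since estradiol is the treatment label of every library. The study asked what the loss of CHD7 does to this maturation.

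Chromodomain helicases use ATP to slide, space or evict nucleosomes, and most carry paired chromodomains that can bind histone tails. CHD1 and CHD2 work at transcribed genes, CHD3, CHD4 and CHD5 are alternative motors of the NuRD corepressor, which also holds histone deacetylases, and CHD6 to CHD9 are very large proteins of which CHD7 is known for CHARGE syndrome. In red cell precursors GATA1 recruits NuRD through its cofactor FOG1, and NuRD helps to silence genes of the progenitor state and of embryonic and fetal globin.

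Because the groups hold 1 library each, no test was possible and every statement is about these libraries. Values are FPKM, which by definition divide the fragments of a gene by its transcript length and by the mapped total. Whether the libraries were scaled further is not given in the sources used here. Log2 ratios are of FPKM + 1, so that changes of low genes come out too small. The ± after a log2 ratio is an approximate 95% half-width for counting error alone, from transcript length and a depth read off the steps between low values (between 14.66 and 17.78 M fragments per library). It does not cover the spread between cultures. Of the erythroid markers Hbb-b1, Hba-a1, Klf1, Epor, Tfrc, Alas2 and Slc4a1, the first 6 were above 2 FPKM in every library, and Slc4a1, a membrane protein of late red cells, was at 0.10 and 0.23 FPKM in the 0 h libraries and 20.6 and 40.7 in the 24 h libraries. Their summed level was 788 and 10055 FPKM in wild-type cells at 0 and 24 h and 1006 and 16781 in Chd7-/- cells. The myeloid markers Mpo, Elane, Ctsg and Prtn3 were listed at 0 throughout and, together with Itgam and Csf1r, summed to 0.042 to 0.11 FPKM. Megakaryocyte markers summed to 4.13 to 5.44 FPKM and lymphoid markers to 0.070 to 2.02. Nearly all of the lymphoid sum was Cd3g, at 2.02 and 1.31 FPKM in wild-type cells and 0.30 and 0.070 in Chd7-/- cells. The megakaryocyte sum hides genes that went apart. Pf4 went from 2.00 to 2.27 FPKM in wild-type cells and from 2.91 to 1.00 in Chd7-/- cells. Gp9 went from 1.00 to 2.48 and from 2.00 to 4.01, and Itga2b from 1.13 to 0.51 and from 0.53 to 0.35. Mast cell markers (Cpa3, Ms4a2, Il1rl1, Mcpt8, Cma1 and Tpsb2) summed to more, 36.4 and 5.77 FPKM in wild-type cells and 63.6 and 2.75 in Chd7-/- cells, with Mcpt8 at 0 throughout. Gata1 was at 31.1 and 38.2 FPKM in wild-type cells and 46.7 and 63.7 in Chd7-/- cells, and Runx1 at 5.76 and 6.32 and at 5.24 and 7.24. The Gata1 row may hold reads of the GATA1 fusion that the line carries. What part of the row they make up is not given, so it is not a level of the native gene. Hbb-b1, the adult beta globin gene, was at 326 and 7865 FPKM in wild-type cells and 528 and 13127 in Chd7-/- cells. Fewer cells of a type and less RNA per cell cannot be told apart in such bulk samples.

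RefSeq start-site windows (build GRCm38.p6) were at hand for 6 of the 10 genes, namely Chd1l, Chd4, Chd5, Chd6, Chd8 and Chd9. The stretches of 250 bases up to the first annotated start of Chd4, Chd5 and Chd6 are shown because these genes carry contrasting results below. As deposited, Chd4 stood lower after estradiol, Chd5 lower in Chd7-/- cells, and Chd6 varied by 1.21 times at most. Another scaling of the libraries, described below, changes the estradiol responses of Chd4 and Chd6 in Chd7-/- cells. Capitals mark matches, on either strand, to the GATA letters (AGATAA and its variant AGATAG, besides TGATAA and its variant TGATAG) or the RUNX letters (TGTGGT and its variant TGTGGC).
Chd4, chr6:125095731-125095980, plus strand: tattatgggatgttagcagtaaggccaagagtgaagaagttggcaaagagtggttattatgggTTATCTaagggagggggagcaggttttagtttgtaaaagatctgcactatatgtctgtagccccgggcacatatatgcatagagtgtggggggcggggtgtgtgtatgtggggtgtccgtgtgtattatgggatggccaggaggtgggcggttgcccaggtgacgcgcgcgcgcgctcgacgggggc
Chd5, chr4:152338401-152338650, plus strand: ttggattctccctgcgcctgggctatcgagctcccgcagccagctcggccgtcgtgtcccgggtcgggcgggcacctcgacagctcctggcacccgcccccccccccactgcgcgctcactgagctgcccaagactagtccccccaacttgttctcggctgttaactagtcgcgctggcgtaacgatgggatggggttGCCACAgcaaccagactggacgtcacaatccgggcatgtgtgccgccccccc
Chd6, chr2:161109087-161109336, minus strand: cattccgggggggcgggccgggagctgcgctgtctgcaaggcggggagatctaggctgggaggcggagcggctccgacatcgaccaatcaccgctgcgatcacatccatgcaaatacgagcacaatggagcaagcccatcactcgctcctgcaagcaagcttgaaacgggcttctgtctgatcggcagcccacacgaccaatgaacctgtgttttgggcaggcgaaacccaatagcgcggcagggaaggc
The Chd4 window shown held 1 GATA match, the Chd5 window shown 1 RUNX match and the Chd6 window neither. Another Chd4 window, at a later start (chr6:125095913-125096162), held no match of either kind. Among all 9 windows of the 6 genes, 3 held a GATA match and 2, both of Chd5, a RUNX match. The 2 Chd5 windows overlap almost wholly and share the same RUNX match, so it is 1 site. The shares over all genes that follow count 1 window per gene and so are not on the same footing. Of all 27025 genes with such a window, 27.1% held a GATA match and 27.6% a RUNX match, so that a match in these letters is common. Matches are letters and not measured sites.

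Chd7 itself (chromosome 4, 8690402 to 8868449, GRCm38) had a listed value of 0 FPKM in each of the 4 libraries, so its row could not check the genotype. A listed 0 in this table need not be a measured absence, because 5 widely used genes already known for it (Zfp131, Ube2d1, Phgdh, Insig1 and Hmgcs1) were at 0 in all libraries too. These 5 were picked for their listed 0, so they show that it occurs and not how often. Of 24 reference genes that most cells use, 0 were listed at 0 in all libraries, and of the 51 partner genes described below, 0. These lists were chosen with earlier results of these data known, so they do not give how often it occurs either. Of 19230 protein-coding rows, 38.7% were listed at 0 in all 4 libraries, and of the 1334 that span 100 to 200 kb, as Chd7 does, 34.0%. Among the 3 coding genes on each side of Chd7, Tox, Car8, Clvs1 and Gdf6 were also listed at 0. The nearest, Rab2a, a Golgi GTPase that ends 82.7 kb before Chd7, stood at 28.5 and 25.7 FPKM in wild-type cells at 0 and 24 h and at 26.0 and 23.0 in Chd7-/- cells. Asph, a hydroxylase gene on the other side, stood at 72.4 and 36.5 FPKM in wild-type cells and 66.0 and 39.0 in Chd7-/- cells. The rows beside Chd7 thus gave values in Chd7-/- cells close to those in wild-type cells.

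The other 9 genes differed widely in abundance. FPKM is per length, so levels can be ordered between genes. Chd4 led in every library, at 59.0 FPKM or more, and Chd9 and Chd5 came last, with the remaining 6 between 4.56 and 19.5 FPKM. A 4-library mean of 1 FPKM or more, the filter for all comparisons, was met by 8 of the 10, all but Chd5 (mean 0.40) and Chd7. Neighbours in the order whose gap did not exceed counting error were Chd1l and Chd1 in wild-type cells at 0 h, Chd3 and Chd8 in Chd7-/- cells at 0 h, and Chd1, Chd2 and Chd1l in Chd7-/- cells at 24 h. Chd3 ranked 4 in wild-type cells at 0 h, ahead of Chd2 and Chd8, and 7 in Chd7-/- cells at 24 h, behind both.

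**Figure D1:**
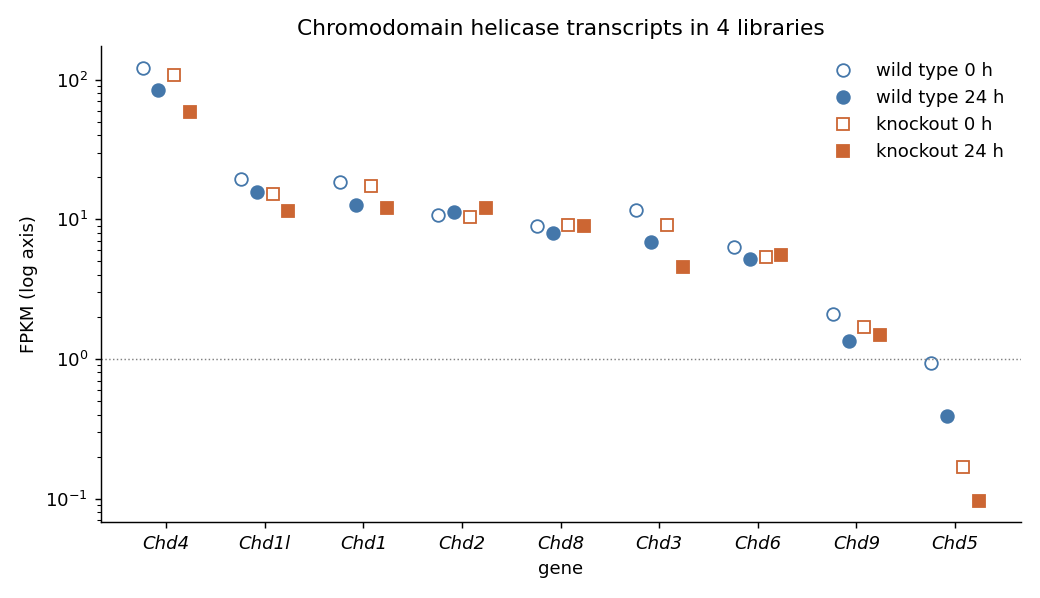
FPKM (log axis) of the 9 family genes with a value above 0 in each library, ordered by mean. Open symbols are 0 h and filled symbols 24 h of estradiol, circles are wild type and squares knockout, and the dotted line marks 1 FPKM. Chd4 stands above all others at 59.0 to 122 FPKM, and Chd5 spans 0.097 to 0.93 FPKM.

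Of the NuRD motors, Chd4 and Chd3 stood lower in Chd7-/- cells than in wild-type cells at both times and lower at 24 h than at 0 h in both genotypes, although scaling each library to an equal sum (TPM) turns the Chd7-/- response to 0.22 and 0.07, and Chd5 was the member with the widest gap between genotypes. Chd4 (chromosome 6, 125095980 to 125130591), the main NuRD motor, was at 122 and 83.9 FPKM in wild-type cells at 0 and 24 h and at 108 and 59.0 in Chd7-/- cells. As deposited, the order of the libraries was wild type 0 h, knockout 0 h, wild type 24 h and knockout 24 h, and the highest was 2.07 times the lowest. TPM scaling, which turns the Chd7-/- response above 0, changes this order. Its log2 ratio over 24 h was -0.54 ± 0.04 in wild-type cells and -0.86 ± 0.04 in Chd7-/- cells. Of the 8964 genes tested, 8.56% and 5.68% had a lower ratio, so Chd4 lay in the lower tail in both genotypes. The difference of the responses, knockout minus wild type, was -0.32 ± 0.06 for Chd4, and above 0 with TPM scaling.

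Chd3 (chromosome 11, 69343273 to 69369499), the motor that can replace CHD4 in NuRD, was at 11.6 and 6.90 FPKM in wild-type cells at 0 and 24 h and at 9.16 and 4.56 in Chd7-/- cells. As deposited, the libraries fell in the same order as for Chd4, with a wider span of 2.54 times. The log2 ratio over 24 h was -0.67 ± 0.11 in wild-type cells and -0.87 ± 0.13 in Chd7-/- cells, and 4.42% and 5.42% of genes had a lower one. As a plain FPKM ratio the knockout response was 2.01-fold lower (counting interval 1.80 to 2.24), which the added 1 FPKM brings under 2-fold. The difference of responses was -0.20 ± 0.17 for Chd3, and above 0 with TPM scaling.

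Chd5 (chromosome 4, 152338646 to 152390194), a NuRD motor known mainly from neurons and testis, was at 0.93 and 0.39 FPKM in wild-type cells at 0 and 24 h and at 0.17 and 0.097 in Chd7-/- cells. These levels rest on about 134, 66.3, 23.3 and 14.6 fragments in the same order. The plain FPKM ratio put the knockout 5.58-fold lower than wild type at 0 h (counting interval 3.62 to 9.24) and 4.06-fold lower at 24 h (2.22 to 7.41). In wild type Chd5 was 2.38-fold lower at 24 h (1.77 to 3.27), and in Chd7-/- cells 1.73-fold lower with an interval that holds no change (0.83 to 3.42). At under 1 FPKM the gene was outside the filter and enters none of the counts.

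Counts over the whole family were set against all genes. Of the 8 measured members, 0 were at least 2-fold different after estradiol in wild-type cells, where 2.92% of all 8964 genes were, and 0 in Chd7-/- cells, where 7.02% were. Lower at 24 h by more than the counting interval were 7 of 8 in wild-type cells, beside 44.0% of the 8563 genes with a known length, and 4 of 8 in Chd7-/- cells, beside 46.3%. Higher by more than it were 0 of 8 in wild-type cells (20.6% of genes) and 1 of 8 in Chd7-/- cells (24.2%). The interval is narrower for abundant genes, and the members' levels are not those of the average gene. The median log2 ratio of the members was -0.36 in wild-type cells and -0.25 in Chd7-/- cells, and the median of all genes -0.11 and -0.12. In the knockout, 6 of the 8 members change sign with TPM scaling, which moves the median of all genes to 0.11 in wild-type cells and 0.83 in Chd7-/- cells, so that Chd4 and Chd3 still lie below it, while 0 of 8 do when small RNA and predicted loci are left out of the sum. Snord49a, a small nucleolar RNA, was listed at 544038 FPKM in Chd7-/- cells at 0 h and at 0 in the others, and this value enters the TPM sum. Over the same 24 h the summed mast cell markers went from 36.4 to 5.77 FPKM in wild-type cells and from 63.6 to 2.75 in Chd7-/- cells, and the erythroid sum from 788 to 10055 and from 1006 to 16781, and the part of either in the members' responses was not tested.

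**Figure D2:**
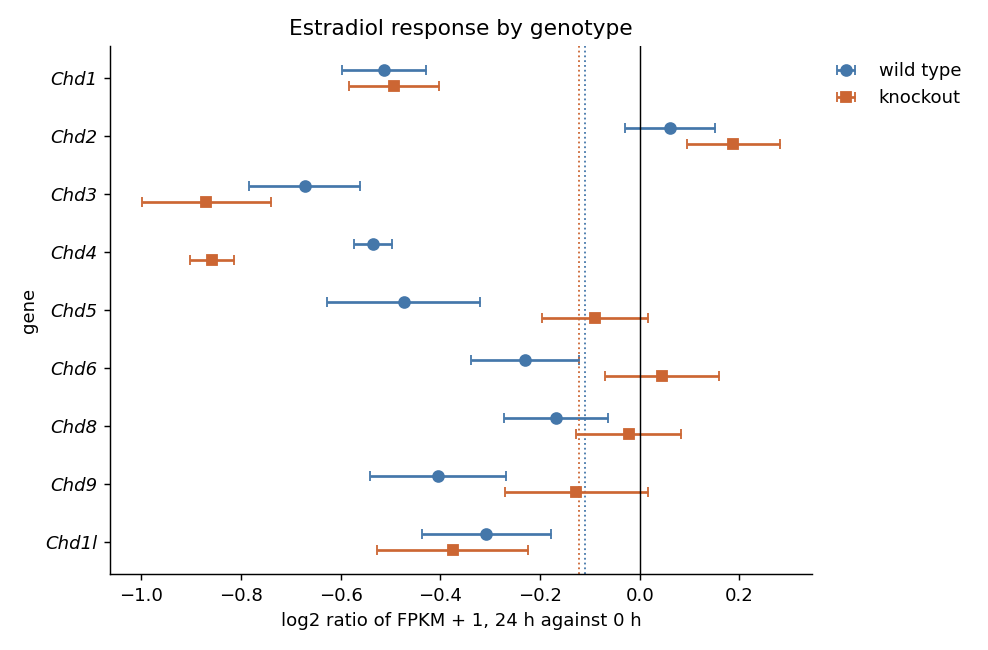
Log2 ratio of FPKM + 1 at 24 h against 0 h for 9 family genes in wild-type cells (circles) and knockout (squares). Bars are approximate 95% counting intervals and dotted lines the median of all genes in each genotype. Chd3 and Chd4 lie lowest in Chd7-/- cells at -0.87 and -0.86 (0.07 and 0.22 with TPM scaling), and Chd2 lies above 0 in both.

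Of the helicases of transcribed genes, Chd1 stood lower after estradiol in both genotypes, while Chd2 varied by 1.15 times at most, both as deposited. With TPM scaling, described above, the Chd7-/- response was 0.52 for Chd1 and 1.18 for Chd2. This scaling also put the median of all genes in that comparison well above 0. Chd2 was the 1 member past 2-fold there, as were many other genes, counted at the end. Chd1 (chromosome 17, 15704967 to 15772612), which binds histone H3 methylated at lysine 4 and evens out nucleosome spacing, was at 18.6 and 12.7 FPKM in wild-type cells at 0 and 24 h and at 17.3 and 12.0 in Chd7-/- cells. As deposited, both 24 h libraries were thus below both 0 h libraries. The log2 ratio was -0.51 ± 0.08 and -0.49 ± 0.09, and the difference of the responses 0.02 ± 0.12. Chd2 (chromosome 7, 73426652 to 73541746), linked to deposition of histone H3.3, was at 10.7 and 11.2 FPKM in wild-type cells and at 10.4 and 12.0 in Chd7-/- cells. The highest of the 4 was the knockout at 24 h. Chaserr, a noncoding locus, overlaps Chd2 in RefSeq, and how shared reads were counted is not given. Its log2 ratio was 0.06 ± 0.09 in wild-type cells and 0.19 ± 0.09 in Chd7-/- cells, above the ratio of 70.6% and 77.1% of genes. The ratio of Chd4 to Chd2 within a library, which no scaling of libraries can move, went from 11.4 to 7.49 in wild-type cells and from 10.3 to 4.91 in Chd7-/- cells.

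Of the relatives of CHD7, Chd8 and Chd6 varied little across the libraries as deposited, by 1.14 and 1.21 times, and the low-level Chd9 by 1.56 times. Chd8 (chromosome 14, 52198151 to 52258042), which binds beta-catenin and CTCF and is known from autism genetics, was at 9.02 and 7.92 FPKM in wild-type cells at 0 and 24 h and at 9.06 and 8.91 in Chd7-/- cells. Wild type at 24 h was the lowest library as deposited. Its log2 ratio was -0.17 ± 0.10 in wild-type cells and -0.02 ± 0.11 in Chd7-/- cells. Chd6 (chromosome 2, 160946978 to 161109086), linked to the response to oxidative stress, was at 6.30 and 5.22 FPKM in wild-type cells and at 5.39 and 5.59 in Chd7-/- cells. As deposited, wild type at 0 h was the highest of the 4 and the others lay close together. Its log2 ratio was -0.23 ± 0.11 in wild-type cells and 0.04 ± 0.11 in Chd7-/- cells, a difference of 0.28 ± 0.16. Chd9 (chromosome 8, 90828302 to 91054516), a coactivator of nuclear receptors, was at 2.11 and 1.35 FPKM in wild-type cells and at 1.71 and 1.48 in Chd7-/- cells. Its log2 ratio was -0.40 ± 0.14 in wild-type cells and -0.13 ± 0.14 in Chd7-/- cells, with a difference of 0.28 ± 0.20. With TPM scaling Chd6, Chd8 and Chd9 remained above Chd3 and Chd4 in the response of Chd7-/- cells, at 0.95, 0.95 and 0.52 against 0.07 and 0.22.

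Chd1l (chromosome 3, 97560740 to 97610222) encodes ALC1, which has a macro domain in place of chromodomains and is activated by poly(ADP-ribose) from PARP1. It was at 19.5 and 15.6 FPKM in wild-type cells at 0 and 24 h and at 15.2 and 11.5 in Chd7-/- cells. As deposited, the knockout at 0 h (15.2) lay near wild type at 24 h (15.6), a match that scaling of the libraries can move. The log2 ratio over 24 h was -0.31 ± 0.13 and -0.38 ± 0.15, and the difference of responses -0.07 ± 0.20. TPM scaling turns the Chd7-/- response to 0.63 and the difference above 0. The annotated locus overlaps that of Fmo5, and the deposited files do not say how shared reads were counted, so the Chd1l values carry that uncertainty.

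Shares of the family can be read within each library, where scaling between libraries plays no part. The NuRD motors Chd3, Chd4 and Chd5 made up 67.0% of the family's summed FPKM in wild-type cells at 0 h and 62.8% at 24 h. In the knockout they made up 66.5% and 55.3%. Chd6, Chd8 and Chd9 together went from 8.68% to 9.98% in wild-type cells and from 9.18% to 13.9% in Chd7-/- cells. The share of Chd1 and Chd2 was 14.6% and 16.5% in wild-type cells and 15.7% and 20.9% in Chd7-/- cells, and that of Chd1l lay between 8.62% and 10.7%. A share can be larger while the level is not, because Chd4 alone holds 51.2% to 61.2% of the sum. In the deposited FPKM, Chd6, Chd8 and Chd9 summed to 17.4 and 14.5 in wild-type cells and 16.2 and 16.0 in Chd7-/- cells, and Chd1 and Chd2 to 29.2 and 23.9 and to 27.7 and 24.0. Chd3 relative to Chd8 gives the same contrast in a pair of similar abundance, with a ratio of 1.29 and 0.87 in wild-type cells and of 1.01 and 0.51 in Chd7-/- cells.

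**Figure D3:**
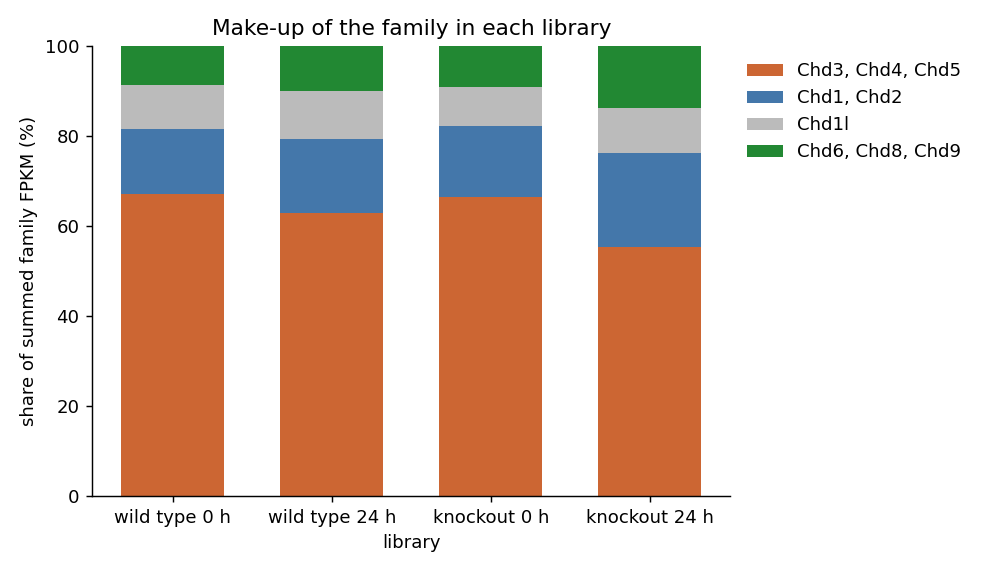
Share (%) of the summed family FPKM held by the NuRD motors (Chd3, Chd4, Chd5), by Chd1 and Chd2, by Chd1l and by Chd6, Chd8 and Chd9 in each library. Chd7 was listed at 0 and adds nothing. The NuRD motors hold 67.0%, 62.8%, 66.5% and 55.3% from left to right.

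Between genotypes, the NuRD motors and Chd1l stood lower in Chd7-/- cells at both times, whereas Chd2 and Chd8 were not lower beyond counting error. At 0 h, 0 of the 8 measured members differed 2-fold, beside 1.08% of all genes. Lower by more than counting error at that time were 6 of 8, beside 33.3% of genes, and higher 0 of 8, beside 14.2%. Among the 8 measured members the lowest log2 ratios were those of Chd1l (-0.34 ± 0.14) and Chd3 (-0.31 ± 0.11), and 8.50% and 10.8% of genes were lower. Chd5, outside the filter, was at -0.73 ± 0.15. Chd4 was at -0.18 ± 0.04, Chd9 at -0.20 ± 0.14, Chd6 at -0.19 ± 0.11, Chd1 at -0.10 ± 0.08, Chd2 at -0.04 ± 0.10 and Chd8 at 0.01 ± 0.11. The median of all genes was -0.07 in this comparison, and -0.78 with TPM scaling, which turns Chd8 below 0 (-0.70). The mast cell markers, of which 3 of 6 passed the filter, summed to 36.4 FPKM in wild-type cells and 63.6 in Chd7-/- cells at 0 h, and their part in these ratios was not tested.

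At 24 h, 0 of 8 differed 2-fold between genotypes (1.85% of all genes), and the 3 of 8 lower beyond counting error (39.9% of genes) and 2 of 8 higher (21.6%) were near the shares over all genes. Lower in Chd7-/- cells were Chd3 at -0.51 ± 0.13, Chd4 at -0.50 ± 0.04 and Chd1l at -0.41 ± 0.14, with 7.20%, 7.41% and 12.0% of genes below them. Higher were Chd8 at 0.15 ± 0.10 and Chd2 at 0.09 ± 0.09, and within counting error lay Chd6 at 0.08 ± 0.11, Chd9 at 0.08 ± 0.14 and Chd1 at -0.08 ± 0.09. The erythroid markers summed to 10055 FPKM in wild-type cells and 16781 in Chd7-/- cells at this time, and the mast cell markers to 5.77 and 2.75, and the part of either in these ratios was not tested. These ratios kept their sign under TPM scaling (0 of 8 changed), and 1 of 8, Chd1, changed sign (to 0.04) with small RNA and predicted loci left out of the sum.

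**Figure D4:**
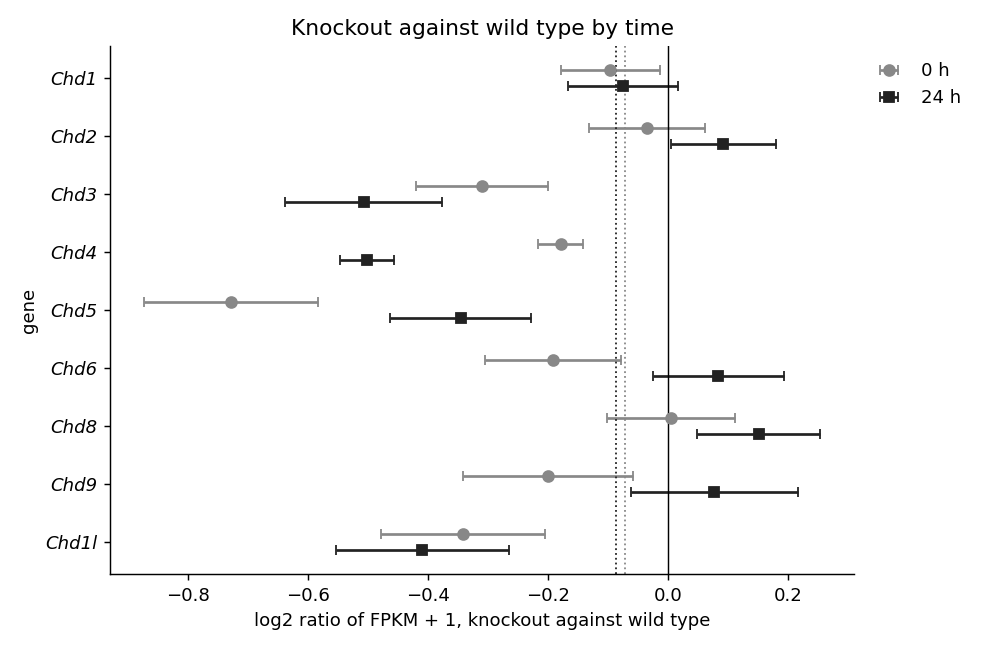
Log2 ratio of FPKM + 1 in Chd7-/- cells against wild type at 0 h (grey circles) and 24 h (black squares) for 9 family genes. Bars are approximate 95% counting intervals and dotted lines the medians of all genes. Chd3, Chd4, Chd5 and Chd1l lie below 0 at both times, and Chd8 reaches 0.15 at 24 h.

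Subtracting the wild-type response to estradiol from that of the knockout gave a difference that reached a log2 value of 1 for 0 of 8 members, beside 1.23% of all genes. By more than counting error, Chd4 and Chd3 were below 0 (2 of 8, beside 23.8% of genes) and Chd6 and Chd9 above it (2 of 8, beside 18.9%). Chd4, at -0.32, had 11.8% of all genes below it, and Chd6 and Chd9, both at 0.28, had 85.7% and 85.8%. The all-gene median of this comparison, once scaled to TPM, went from -0.02 to 0.72. This scaling turned 3 of 8 members above 0, namely Chd3 and Chd4 (0.54 and 0.52) and Chd1l.

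Partner genes of the family were described by lists taken from known complexes, 51 genes in all with a row. All 51 passed the filter. In the deposited values 0 differed 2-fold in any comparison, beside 1.08% to 7.02% of all genes. Over 24 h, 37 were lower beyond counting error and 5 higher in wild-type cells (44.0% and 20.6% of all genes), and 41 lower and 4 higher in Chd7-/- cells (46.3% and 24.2%). Their median log2 ratio was -0.20 in wild-type cells and -0.30 in Chd7-/- cells, against -0.11 and -0.12 for all genes. With TPM scaling all 7 list medians lay above 0 in Chd7-/- cells (0.43 for the ChAHP list to 0.86 for the H3.3 list, beside 0.83 for all genes). In wild-type cells those of ChAHP and PARP stayed below 0. The counts above and the directions below are therefore those of the deposited scaling.

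The other NuRD subunits differed among themselves. Of 12 measured, 8 were lower and 2 higher beyond counting error in wild-type cells (44.0% and 20.6% of all genes). In Chd7-/- cells 10 were lower and 1 higher (46.3% and 24.2%). The medians were -0.16 and -0.25. Lowest in the difference of responses were Cdk2ap1, a small subunit (74.8 to 65.8 FPKM in wild-type cells, 117 to 70.9 in Chd7-/- cells, difference -0.54), and Mbd3, which bridges the deacetylase and remodelling modules (29.5 to 34.1 and 36.3 to 32.2, -0.37). Highest were Mta2, a scaffold subunit (93.8 to 94.8 FPKM and 88.0 to 91.7, 0.04), and Mbd2, which binds methylated DNA (51.0 to 59.0 and 52.4 to 62.1, 0.03).

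CHD4 also works with ADNP and heterochromatin protein 1 in the ChAHP complex. All 4 listed partner genes were lower at 24 h beyond counting error in both genotypes, beside 44.0% of all genes in wild-type cells and 46.3% in Chd7-/- cells. Their median was -0.40 in wild-type cells and -0.61 in Chd7-/- cells. Cbx1 (49.9 to 43.3 FPKM in wild-type cells, 49.6 to 31.9 in Chd7-/- cells) and Cbx3 (182 to 136 and 169 to 101) had the lowest differences of response, -0.42 and -0.33. Adnp went from 18.1 to 12.1 FPKM and from 18.1 to 11.5, and Cbx5 from 72.2 to 55.3 and from 68.1 to 51.1, with differences of -0.06 and -0.03.

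Among the partners of the transcription-linked CHD1, 8 of 9 were below 0 over 24 h in each genotype, beside 64.0% of all genes in wild-type cells and 62.5% in Chd7-/- cells. The exception was Cdc73, the parafibromin subunit of the PAF1 complex, at 25.7 and 34.3 FPKM in wild-type cells and 28.1 and 55.5 in Chd7-/- cells, with the highest difference of response on the list, 0.55, followed by Rtf1 (0.08). Ssrp1, a subunit of the histone chaperone FACT, went from 170 to 153 and from 159 to 122 (difference -0.22), and Paf1 had a difference of -0.21. For CHD2, the H3.3 genes H3f3a and H3f3b stood at 519 to 545 and 253 to 297 FPKM in wild-type cells and at 452 to 485 and 270 to 272 in Chd7-/- cells. Daxx, a chaperone of that histone, had the lowest difference of response among the 7 H3.3 genes and chaperones, -0.48 (28.0 to 22.1 and 23.9 to 13.2 FPKM), followed by H3f3b (-0.22), and Atrx (0.12) and H3f3a (0.03) the highest.

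Of the partners of CHD8, 6 of 6 were below 0 over 24 h in both genotypes (64.0% and 62.5% of all genes were), with medians of -0.20 and -0.33, although Chd8 itself was at -0.17 and -0.02. Wdr5, the scaffold of histone H3 lysine 4 methyltransferases, went from 36.3 to 28.4 FPKM in wild-type cells and from 34.6 to 22.8 in Chd7-/- cells (difference -0.23), Ctnnb1, beta-catenin, had a difference of -0.22, and Ctcf (-0.01) and Dpy30 (0.02) lay at the other end. The 10 PBAF genes, which encode a SWI/SNF complex that CHD7 is known to bind, had medians of -0.20 and -0.29. Of these, 8 were lower beyond counting error and 0 higher in wild-type cells (44.0% and 20.6% of all genes). In Chd7-/- cells 7 were lower and 1 higher (46.3% and 24.2%). Smarcc1 (-0.34) and Smarcd1 (-0.21) had the lowest differences of response and Smarcc2 (0.23) and Pbrm1 (0.22) the highest. Of the CHD1L partners Parp1, Parp2 and Parg, 3 of 3 were lower beyond counting error over 24 h in each genotype (44.0% and 46.3% of all genes). Parp1 went from 145 to 106 FPKM in wild-type cells and from 134 to 91.7 in Chd7-/- cells. Parg had the lowest difference of response of the PARP list (-0.21) and Parp2 the highest (-0.03).

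**Figure D5:**
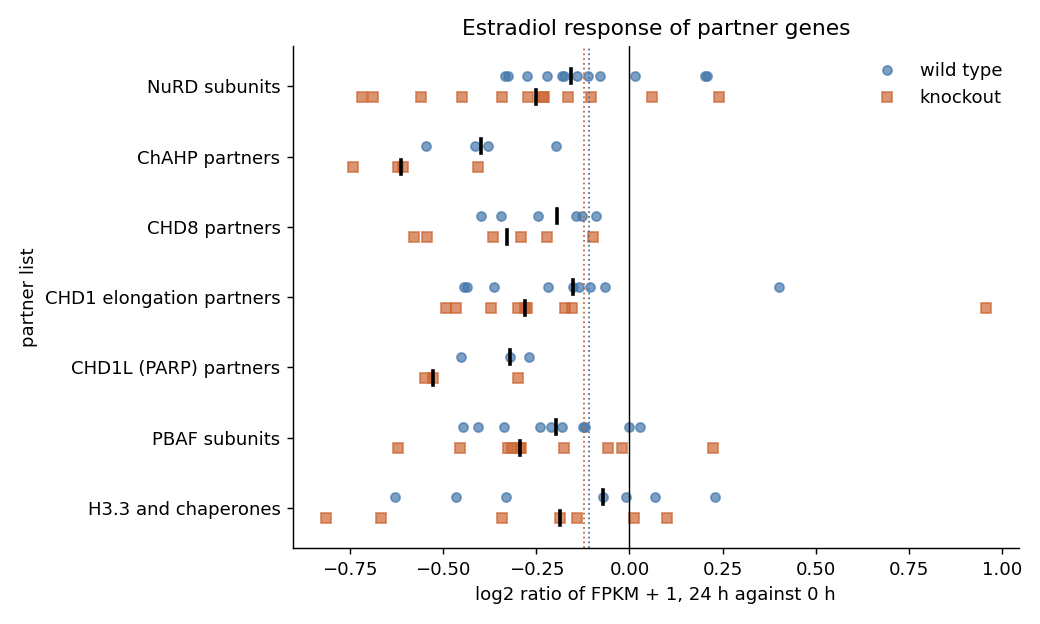
Log2 ratio of FPKM + 1 at 24 h against 0 h for each measured partner gene, by list, in wild-type cells (circles) and knockout (squares). Black ticks are list medians and dotted lines the medians of all genes. The ChAHP list has the lowest medians, -0.40 and -0.61 (-0.16 and 0.43 with TPM scaling), and Cdc73 is the point at 0.96 among the CHD1 partners in Chd7-/- cells.

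The genes most like each member over the 4 libraries were sought among 6629 others with a mean of at least 5 FPKM, by the distance between log2 values centred on each gene's own mean. With 4 libraries many genes lie close to any pattern. Nearest to Chd4 were Nup43, Rbm28 and Bop1 at distances of 0.04 to 0.06, and Chd3 was its 47th nearest gene at 0.12. Nearest to Chd3 were Yars2, Gstp1 and Ppif, with Chd4 in place 20. Within the family, Chd6 and Chd8 were the next closest pair at 0.15, in places 347 and 368 of each other's lists, and Chd2 and Chd3 lay farthest apart, at 1.01. The nearest genes were Pum2, Ipo7 and Aqr for Chd1, Pi4ka, Polr3c and Fam204a for Chd2, and Polr3g, Asun and Fbxo30 for Chd6. For Chd8 they were 0610030E20Rik, Klhl12 and Ergic2, and for Chd1l Ppp2r3c, Nabp1 and Edem1.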

How the data were processed

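Total RNA was sequenced after ribosomal depletion, per the labels' protocols, and each group is 1 library. The authors deposited FPKM per gene for each library, and the submitters' processing notes list Cufflinks 2.2.1, TopHat2 2.0.11, cutadapt, FastQC and the build GRCm38. The sources used here do not give annotation, strand setting or between-library scaling. A header repeated inside the table was left out.

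Ratios of FPKM + 1 were computed for the 8964 genes averaging 1 FPKM or more, and a gene was counted at 2-fold. Depth was approximated from whole-fragment steps in low values of genes that have only 1 annotated transcript, 3 kb or longer. Between 55.9% and 71.1% of these values were whole within 0.1 fragment, so depths and intervals are approximate, cover counting error only, and no count test was run. Lengths were those of the longest coding GENCODE transcript, for 8563 genes. The computation was tested on simulated data. Small RNA and predicted loci were set by gene name and include Rn45s, Rmrp and Rpph1.

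The members and lists were chosen with earlier results of these data known. Named were all members, per partner list up to 2 genes highest and 2 lowest in the difference of responses, 3 genes most like each member with a mean of at least 5 FPKM, and the coding neighbours of Chd7. Hpf1 had no row. A marker of the erythroid list is not reported here and was left out of its sum. No gene of the list of reference genes that most cells use (24 genes, median log2 ratio over 24 h 0.03 in wild type and -0.11 in the knockout) was listed at 0. Alternatives were no filter, a higher filter (mean of 5 FPKM), pseudocounts of 0.1 and 5 FPKM, TPM scaling, scaling without small RNA and predicted loci, centred medians, and those loci left out. Computing used Python 3.11.15 with pandas 2.3.3, numpy 2.4.6, scipy 1.17.1 and, for plots, matplotlib 3.10.9.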

Additional observations from a re-analysis of the deposited data

Results flagged for a closer look

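The log2 ratio of Chd6 over 24 h of estradiol had opposite signs in the genotypes, -0.23 ± 0.11 in wild type and 0.04 ± 0.11 in the knockout, where it lay within counting error and so had no direction. The difference was 0.28, with 1 library per group, so it was not tested. With TPM scaling the ratios were -0.03 and 0.95.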

How the results depend on the processing

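No paired analysis was possible because each group holds 1 library, and no replicate could be left out for the same reason. The count of members at least 2-fold different was 0 in all 5 comparisons and under all settings except TPM scaling. That scaling gave 1 for the knockout response (Chd2), beside 3105 genes over the whole table. It gave 2 for the knockout at 0 h (Chd3 and Chd1l), beside 1151 genes. With TPM scaling the members' median log2 ratio was -0.17 for the wild-type response, 0.58 for the knockout response, -0.84 for the knockout at 0 h and 0.80 for the difference of responses, and the genes at least 2-fold different numbered 3105, 1151 and 1366 in the knockout response, at 0 h and in the difference, against 629, 97 and 110. The members' median for the wild-type response was -0.21 with a pseudocount of 5 FPKM. For the knockout response it was -0.13 with no filter, which adds Chd5, -0.38 at a mean of at least 5 FPKM, which drops Chd9, and -0.14 with median-centred libraries. A pseudocount of 0.1 FPKM gave 394 genes for the wild-type response, 173 and 317 for the knockout at 0 and 24 h and 224 for the difference of responses, and one of 5 FPKM gave 127, 48, 65 and 52 in that order and 303 for the knockout response. The deposited values gave 262, 97, 166 and 110. A mean of at least 5 FPKM gave 63 genes at 0 h and 106 at 24 h between genotypes, and leaving out small RNA and predicted loci 64 at 0 h. Higher genes made up 63.7% of those called in the wild-type response (75.6% centred, 85.0% with TPM), 48.2% in the knockout response (62.0% and 98.8%), 40.2% at 0 h (42.7% and 2.35%) and 49.1% in the difference (52.3% and 98.2%), and 38.6% at 24 h (53.3% with small RNA and predicted loci left out of the sum).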
